A study of Homo sapiens with 8 samples.

Results

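Genes of mitosis and of the G2/M transition are described here across 8 expression arrays of an ALK-driven human lung cancer cell line and its drug-resistant derivatives. The set listed 42 genes by name, and a gene was measured when a probe set of the array carried its symbol alone. Of the 42 genes, 41 had such a probe set, and all 41 were among the 10527 genes bright enough to test, out of 18132 genes on the array. PTTG1, the securin that holds back chromatid separation, had a single probe set that it shared with PTTG3P, and it was left out. Where a gene had several such probe sets, the brightest on average was read, and 13 of the 41 genes had no other.

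The parental line was H3122, an established lung adenocarcinoma line with the EML4-ALK fusion kinase, which all 3 lines carry. H3122-LR2 and H3122-LR3 are derivatives of it that are resistant to ceritinib, and nothing in the labels says whether either is 1 clone. Parental and LR2 cells were each measured untreated, after crizotinib and after ceritinib, whereas LR3 cells were measured untreated and after ceritinib. Both agents inhibit ALK and were given at 1000 nM for 6 h. Each condition had 1 array, so no condition was replicated. In comparisons of lines or agents, the spread behind a p-value is how differences between lines vary over agents. In tests of inhibitor against none, it is the gap between crizotinib and ceritinib arrays, which were counted as 1 condition. Such a spread may be technical or an effect of agent, and it does not measure variation between replicate cultures. All levels are log2 signals, all differences are log2 differences, and values after ± are standard errors of limma.

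Cells enter mitosis when cyclin B bound to CDK1 is switched on by the CDC25 phosphatases, with help from the kinases PLK1 and Aurora A. Kinetochore proteins then attach chromosomes to the spindle, and the spindle checkpoint holds back the anaphase-promoting complex until attachment is complete. Much of the RNA for this machinery is made in G2 and mitosis and is kept low in G1. Such timing depends on promoter elements called CHR and CCAAT boxes, on which repressive DREAM complexes, B-MYB, FOXM1 and NF-Y act. Transcripts of the set are therefore widely used as a readout of cells in G2 and mitosis.

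Promoters were shown for 6 of the genes that were called lower in a resistant line and had an entry in the RefSeq promoter table of build GRCh38.p14. All 6 hold a match to an element, so they do not stand for every such gene. CENPE and CDC25C were also called lower and had no match in the longer window described below. Each sequence is the 120 bases just before the first listed transcription start, 5′ to 3′ on the gene's strand. Capitals mark the CHR element, searched as TTTGAA or TTCGAA, and the CCAAT box, searched as CCAAT, each on both strands, so that TTCAAA and ATTGG are also in capitals. Neighbouring matches can touch or overlap, as CCAAT and ATTGG do in HMMR.
CCNB1 (chr5:69167030-69167149, plus strand): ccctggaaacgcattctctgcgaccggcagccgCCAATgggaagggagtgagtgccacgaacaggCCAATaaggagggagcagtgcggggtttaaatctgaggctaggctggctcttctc
CENPA (chr2:26785936-26786055, plus strand): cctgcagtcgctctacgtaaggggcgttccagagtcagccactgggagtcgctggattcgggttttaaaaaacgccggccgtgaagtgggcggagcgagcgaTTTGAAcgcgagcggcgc
DLGAP5 (chr14:55191586-55191705, minus strand): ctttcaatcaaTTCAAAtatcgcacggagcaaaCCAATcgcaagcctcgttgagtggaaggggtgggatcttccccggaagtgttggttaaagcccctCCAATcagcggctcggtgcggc
HMMR (chr5:163460512-163460631, plus strand): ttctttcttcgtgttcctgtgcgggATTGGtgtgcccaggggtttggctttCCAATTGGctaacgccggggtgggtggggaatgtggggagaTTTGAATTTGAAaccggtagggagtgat
KIF18A (chr11:28108157-28108276, minus strand): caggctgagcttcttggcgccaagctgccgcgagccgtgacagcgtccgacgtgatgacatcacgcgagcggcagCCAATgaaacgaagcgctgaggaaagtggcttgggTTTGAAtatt
KIF20A (chr5:138178992-138179111, plus strand): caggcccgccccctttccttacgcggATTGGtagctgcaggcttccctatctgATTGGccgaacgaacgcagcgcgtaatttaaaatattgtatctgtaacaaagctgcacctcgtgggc

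The promoter table held 35 of the 42 listed genes, with windows from 250 bases before to 50 bases after the start. A CHR match lay in 24 of these 35 windows (68.6%), against 16.6% of all 27305 promoters of the table and 10.9% of 8699 other genes tested here. CCAAT lay in 26 windows (74.3%), against 35.7% of all promoters. Both motifs together lay in 20 windows (57.1%), against 6.58% of all promoters and 4.69% of the other tested genes. In MKI67 and PLK1 windows both motifs were found, whereas CDC25B, CDC25C, CENPE, CKAP2 and KIF2C had neither in this window at the first listed start. A match is a description of letters and does not show that a factor binds there.

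The LR2 ceritinib array had a median of 5.46 over all probe sets, and the other 7 arrays had medians of 5.31 to 5.36. For GAPDH, the difference of 3′ minus 5′ probe sets, a sign of RNA integrity, was -0.12 to -0.04, and for ACTB it was 0.09 to 0.26, highest in the LR2 crizotinib array. All 9 epithelial markers, among them EPCAM and CDH1, exceeded the brightness floor of 5.36 in every array, as did 5 of 6 lung lineage markers, whereas none of 7 fibroblast markers did so in any array. Among 6 measured leukocyte markers, 4 were under the floor in all arrays and none exceeded it in all. Of 6 endothelial markers, 2 (CDH5 and KDR) exceeded it in every array and 3 in none; their part in the results was not tested. DUSP6, a phosphatase induced by ERK signalling, served as a check of the inhibitors. Its level was 12.41, 7.93 and 7.39 in parental cells without agent, with crizotinib and with ceritinib, 11.79, 7.26 and 11.51 in LR2 cells, and 12.17 and 12.04 in LR3 cells without agent and with ceritinib. DUSP6 was thus far lower in 3 of the 5 inhibitor arrays, and near its untreated level with ceritinib in both resistant lines.

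Across the 8 arrays, the 41 genes had levels between 7.01 (KIF4A) and 11.39 (TOP2A). Their mean level was 9.11, 9.52 and 9.46 in parental cells (untreated, crizotinib, ceritinib), 8.99, 9.35 and 9.21 in LR2 cells, and 8.97 and 9.07 in LR3 cells (untreated, ceritinib). The parental crizotinib array had the highest mean and the untreated LR3 array the lowest, close to the untreated LR2 array. TOP2A, the topoisomerase that untangles sister chromatids, and KIF20A, a kinesin of the central spindle, each had a Pearson r of 0.98 to the mean of the other genes over the 8 arrays. In 3 genes the coefficient was below 0: CDC25B (-0.12), the checkpoint protein MAD2L1 (-0.092) and ECT2 (-0.12), the exchange factor that starts cytokinesis. These coefficients are descriptions over arrays that share lines and agents.

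**Figure D1:**
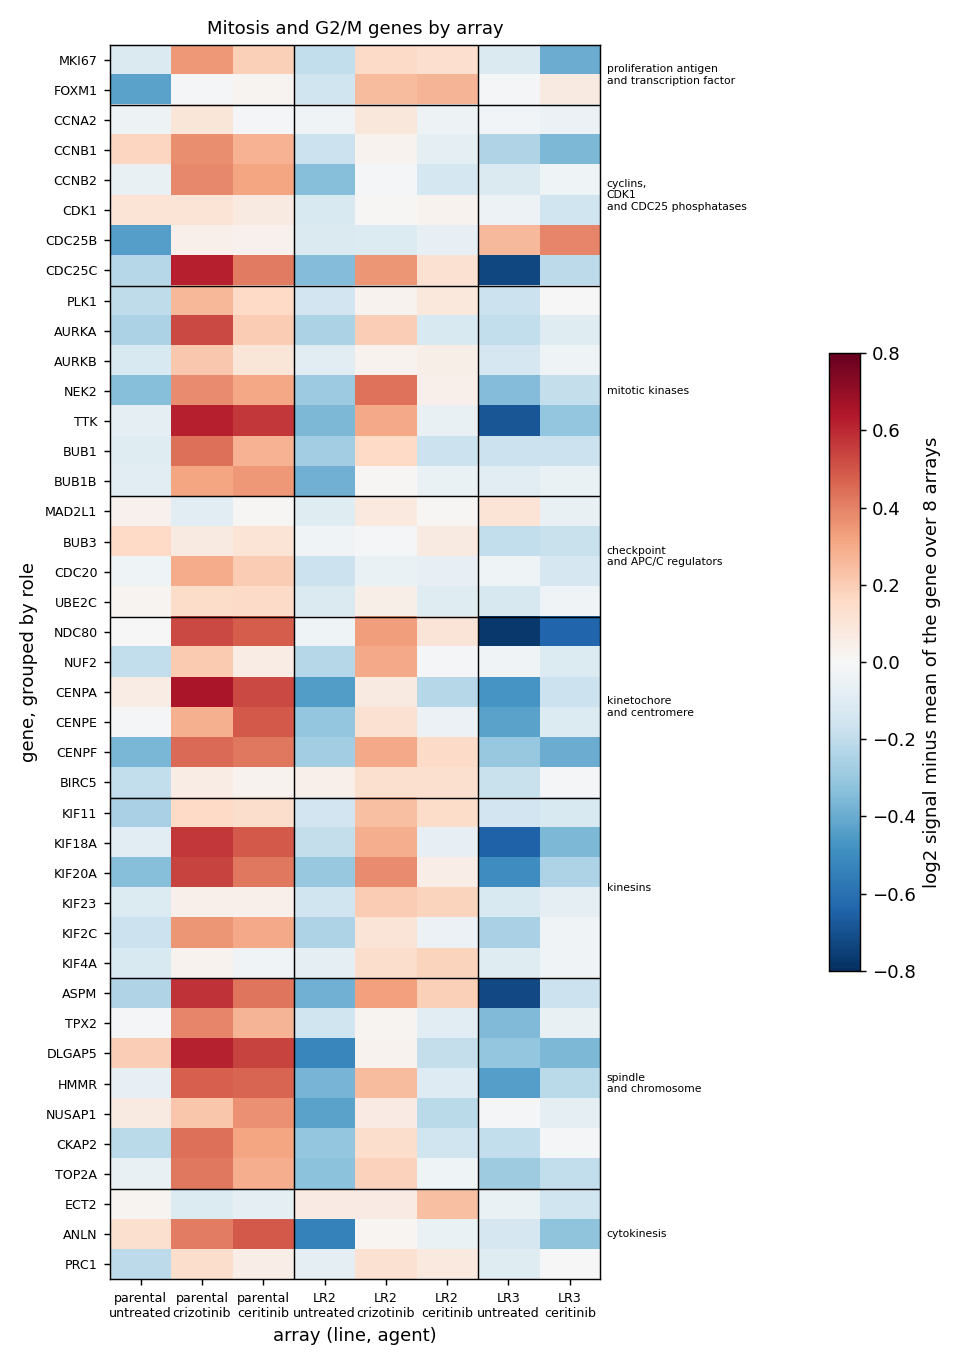
Colours show the log2 signal of each of the 41 genes (rows, grouped by role) minus the mean of that gene over the 8 arrays (columns). Parental crizotinib and ceritinib columns are mostly red (above the mean), and the untreated LR2 and LR3 columns mostly blue (below it), with CDC25B red in both LR3 columns.

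In parental cells, most mitotic genes had higher signal after 6 h of either inhibitor than without. Relative to the untreated parental array, 37 of 41 genes were above it with crizotinib (median 0.42) and 37 with ceritinib (median 0.36), against 56.9% and 54.2% of all genes tested, whose medians were 0.04 and 0.02. Both differences share the 1 untreated array. The contrast of the 2 inhibitor arrays with the untreated array called none of the 41 genes at a Benjamini-Hochberg adjusted p under 0.05 in limma, and none of all genes tested (background 0%). At an unadjusted p under 0.05, 30 of the 41 genes were higher and none lower, against a background of 12.1% of tested genes. DUSP6 was likewise not called in that contrast, although its level was 12.41 untreated and 7.93 and 7.39 with the inhibitors. A lack of adjusted calls there does not show that a gene was unchanged. The same holds for the LR2 and LR3 contrasts below, where no tested gene was called. In RNA from bulk cultures, a different share of cells in G2 or mitosis and a different amount of RNA per such cell cannot be told apart.

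The largest difference in parental cells was that of KIF20A. Its level was 9.08 untreated, 9.96 with crizotinib and 9.84 with ceritinib, a difference of 0.82 ± 0.16 or 1.77-fold (n = 2 inhibitor arrays against 1, limma adjusted p = 0.143). CENPF, a kinetochore protein, measured 8.11, 8.93 and 8.9, a difference of 0.81 ± 0.11 (adjusted p = 0.142). For both genes the 2 inhibitor arrays lay close together and well above the untreated array. CDC25C, a phosphatase that activates CDK1, measured 7.83, 8.68 and 8.47. ASPM, a protein of spindle poles, measured 8.07, 8.89 and 8.74, and had the same difference as CDC25C, 0.75 with standard errors of 0.15 for CDC25C and 0.12 for ASPM. NEK2, a centrosomal kinase, measured 7.98, 8.7 and 8.63, and TTK, the checkpoint kinase also called MPS1, measured 9.42, 10.12 and 10.06. None of these 6 genes passed the adjusted test.

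Central regulators of mitotic entry differed less evenly. FOXM1, a transcription factor that activates many genes of the set, measured 7.09 untreated, 7.5 with crizotinib and 7.54 with ceritinib (0.43 ± 0.096). MKI67, the gene of the Ki-67 proliferation antigen, measured 8.84, 9.3 and 9.15. AURKA, the Aurora A kinase, measured 9.99, 10.77 and 10.45, so that its 2 inhibitor arrays differed from each other more than those of FOXM1. PLK1 measured 7.07, 7.54 and 7.43 and TOP2A measured 10.91, 11.39 and 11.26. CCNB1, cyclin B1, differed by 0.16 ± 0.11 and CDK1 by -0.02 ± 0.096, with CDK1 at 10.86, 10.86 and 10.82. The other genes without a positive difference were MAD2L1 and BUB3, both of the spindle checkpoint, and ECT2, at -0.07, -0.07 and -0.11.

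By role, all 7 mitotic kinases (PLK1, AURKA, AURKB, NEK2, TTK, BUB1 and BUB1B) were above the untreated level at an unadjusted p under 0.05, from 0.28 for AURKB to 0.69 for NEK2. Of the 6 kinesins, KIF11, KIF18A, KIF20A and KIF2C met that p and KIF23 and KIF4A did not (0.15 and 0.12). Among kinetochore and centromere genes NUF2 alone missed it (0.34 ± 0.16). Among 7 spindle and chromosome genes NUSAP1 alone missed it (0.22 ± 0.15). Here and below, counts for fits with an array left out are given without shares of all tested genes. Without an inhibitor array of parental or LR2 cells, residual degrees of freedom are fewer for every gene. When the parental crizotinib array was left out, 9 genes met the unadjusted threshold in place of 30, and 12 did without the parental ceritinib array.

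LR2 cells had positive differences as well, although DUSP6 was low in only 1 of their 2 inhibitor arrays. The median of the 41 genes was 0.39 with crizotinib, with 40 genes above the untreated array, and 0.21 with ceritinib, also with 40 genes above. All tested genes had medians of 0.01 and 0.1, and 51.1% and 75.2% of them were above, so that the LR2 ceritinib array, whose median was also the highest, was shifted as a whole. The median of 15 ERK output genes in the same arrays was -1.78 with crizotinib and -0.11 with ceritinib. In parental cells that median was -1.69 and -1.75. Whether ERK output has a part in the level of the mitotic genes was not tested.

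Again no gene was called in LR2 cells (limma, background 0%). At an unadjusted p under 0.05, 15 of the 41 genes were higher and none lower, against 8.7% of tested genes. ASPM had the largest difference, 0.64 ± 0.12 (adjusted p = 0.485), with levels of 7.93 untreated, 8.64 with crizotinib and 8.5 with ceritinib. CDC25C measured 7.71, 8.41 and 8.18. ANLN, the anillin of the contractile ring, measured 8.93, 9.49 and 9.42, and NEK2 measured 8.03, 8.75 and 8.36. The ceritinib array lay between the other 2 arrays in all 4 genes, close to the crizotinib array for ANLN and about midway for NEK2. The number at an unadjusted p under 0.05 was 23 without the LR2 ceritinib array, 8 without 1 or the other parental inhibitor array, and 9 with each array centred on its median.

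LR3 cells showed a smaller shift with ceritinib. The median of the 41 genes was 0.09, against 0.01 for all tested genes, with 28 genes above the untreated array and 12 below. Of all tested genes, 52.3% were above. No gene was called (limma, background 0%), and 2 of 41 were higher at an unadjusted p under 0.05, against 3.23% of tested genes. These 2 were ASPM, at 7.59 untreated and 8.14 with ceritinib, and CDC25C, at 7.33 and 7.85. The count was 1 without 1 or the other parental inhibitor array and 4 without 1 or the other LR2 inhibitor array. MKI67 measured 8.84 and 8.56, and CENPF 8.17 and 8.08. Both thus lay lower with ceritinib in the probe set used, but other probe sets differed. The 6 probe sets of MKI67 gave differences of -0.28 to 0.27, and the second of CENPF gave 0.29.

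**Figure D2:**
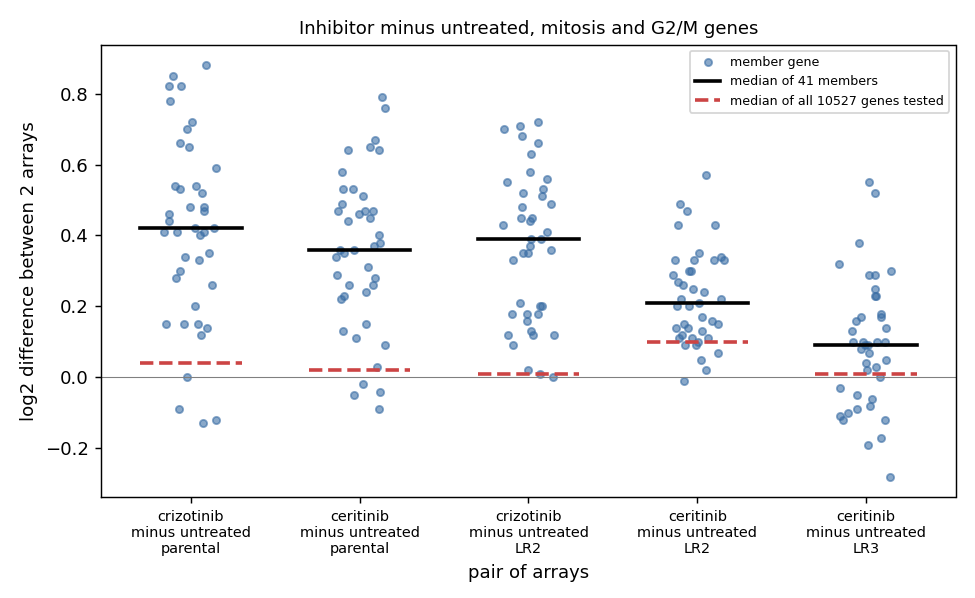
Each point is 1 of the 41 genes, plotted as the log2 difference between an inhibitor array and the untreated array of the same line, with the median of the 41 genes (black) and of all 10527 genes tested (red, dashed). Medians of the 41 genes are 0.42, 0.36, 0.39, 0.21 and 0.09 from left to right.

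The difference between lines in the inhibitor response was tested directly, as an interaction in limma. For LR3 it sets ceritinib alone against the mean of crizotinib and ceritinib in parental cells. Line and agent are therefore mixed in that comparison. For LR3 against parental cells, 39 of the 41 response differences were negative, with a median of -0.29 against -0.02 for all tested genes. None was called (background 0%), and 5 of the 41 were lower at an unadjusted p under 0.05, against 3.56% of tested genes. CENPF differed by -0.9 ± 0.17 and MKI67 by -0.67 ± 0.17 (adjusted p = 0.91 for both). ANLN, BUB1B, a checkpoint kinase homologue, and CDC20, the activator of the anaphase-promoting complex, were the other 3. The count was 3 without the parental crizotinib array, 2 without the parental ceritinib array and 12 without 1 or the other LR2 inhibitor array. For LR2 against parental cells, 31 of 41 were negative (median -0.11) and none was called (background 0%). CDC25B alone was lower at an unadjusted p under 0.05 (-0.45 ± 0.14), against 1.12% of tested genes. Without 1 or the other parental inhibitor array no gene was, and 5 were without the LR2 crizotinib array. Responses and response differences share untreated arrays. The sizes also depend on the probe set. In CENPF the response was 0.805 in parental and -0.09 in LR3 cells in the probe set used, and 0.76 and 0.29 in the other. The 6 probe sets of MKI67 gave 0.17 to 0.41 and -0.28 to 0.27 in the same order. Those of ANLN gave 0.305 to 0.35 and -0.19 to 0.19. The 5 of CDC25B gave 0.07 to 0.475 in parental and 0.02 to 0.105 in LR2 cells. That used had the largest parental response.

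When each agent was tested over lines in an additive model, an alternative to the contrast above, crizotinib gave calls. These tests of single agents against untreated cells were not among the planned comparisons. Against untreated cells, 12 of the 41 genes were higher and none lower in limma at an adjusted p under 0.05, against 2.82% of tested genes called higher. They were CDC25C, AURKA, NEK2, TTK, CENPA, KIF18A, KIF20A, KIF2C, ASPM, HMMR, CKAP2 and TOP2A. Fits with an array left out have fewer residual degrees of freedom for every gene tested. Shares of all tested genes are not given for them. The count fell to 0 without any 1 of the untreated or crizotinib arrays of parental or LR2 cells and to 4 without the LR2 ceritinib array or with each array centred on its median, and it was 22 without the parental ceritinib array. Ceritinib over all 3 lines called none of the genes (background 0%), and 23 were higher at an unadjusted p under 0.05, against 15.1% of tested genes. That count was 11 without the untreated and 12 without the ceritinib array of parental cells.

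Crizotinib and ceritinib, at the same dose and time, were compared in the additive model of all 8 arrays. Its estimates also draw on LR3 cells, which had no crizotinib array. In the model none of the 41 genes was called (limma, background 0%). There, 38 of 41 differences were negative, with a median of -0.12 against 0.023 for all tested genes. In matched arrays alone, 31 of 41 genes were lower with ceritinib in parental cells (median -0.07) and 32 in LR2 cells (median -0.13). Of all tested genes, 57.3% and 27.2% were lower there, with medians of -0.03 and 0.09. At an unadjusted p under 0.05, 9 genes were lower with ceritinib, against 1.46% of tested genes. AURKA differed most, by -0.35 (95% interval -0.6 to -0.11, adjusted p = 0.771). Its ceritinib level was below its crizotinib level in parental cells (10.45 and 10.77) and in LR2 cells (10.12 and 10.44). Ceritinib was below crizotinib in both lines for 25 of the 41 genes (61%), against 15.1% of tested genes. Without the parental crizotinib array or 1 of the LR2 inhibitor arrays 1 gene met the unadjusted threshold, 4 met it without 1 of the LR3 arrays, and 15 met it, with 1 of them called, without the parental ceritinib array.

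LR2 and parental cells were compared across agents to see which mitotic genes differed between a resistant line and its parent. Of the 41 genes, 14 were called lower and none higher in limma, against backgrounds of 9.68% of tested genes lower and 12.8% higher. The median difference was -0.2, against 0.023 for all tested genes. Genes lower in all 3 matched arrays numbered 24 (58.5%), against 23.1% of tested genes. The single-array medians were -0.1 untreated, -0.19 with crizotinib and -0.27 with ceritinib, and for all tested genes 0.01, -0.02 and 0.09.

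DLGAP5, a protein that stabilises spindle fibres near chromosomes, had the largest fall. Its level was 9.27, 9.69 and 9.61 in parental cells, in the order untreated, crizotinib, ceritinib, and 8.55, 9.1 and 8.88 in LR2 cells. It fell by 0.68 ± 0.094 or 1.6-fold (lower in 3 of 3 matched arrays, limma adjusted p = 0.00235), and no LR2 value reached the lowest parental value. CENPA, the histone variant that marks centromeres, measured 9.81, 10.4 and 10.28 in parental cells and 9.3, 9.82 and 9.52 in LR2 cells. It fell by 0.62 ± 0.075 (adjusted p = 0.00136), although the LR2 crizotinib value lay just above the untreated parental value. ANLN measured 9.6, 9.88 and 9.96 in parental cells and fell by 0.53 ± 0.13 in LR2 cells (adjusted p = 0.0211). Its gap was widest in the untreated arrays, at 0.67 below parental.

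Both B-type cyclins were lower in LR2 cells. CCNB1 measured 10.09, 10.29 and 10.2 in parental cells and 9.75, 9.95 and 9.84 in LR2 cells, without overlap, and fell by 0.35 ± 0.074 (adjusted p = 0.0137). CCNB2 measured 9.7, 10.14 and 10.07 against 9.42, 9.75 and 9.62, and fell by 0.37 ± 0.077. In CCNB2 the LR2 crizotinib value overlapped the untreated parental value. CDK1, their partner, differed by -0.12 ± 0.076 (adjusted p = 0.282), and cyclin A2 (CCNA2) by -0.01 ± 0.065. Neither was called.

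Other falls in LR2 cells lay in the kinases TTK (-0.41 ± 0.085), BUB1 (-0.3 ± 0.086) and BUB1B (-0.33 ± 0.088), all of the spindle checkpoint. CENPE, a kinesin that carries chromosomes to the spindle equator, and KIF18A, a kinesin that shortens spindle fibres, were also called (-0.33 and -0.31). Of the spindle and chromosome genes, 5 of 7 were called, with NUSAP1 at -0.41 ± 0.1, HMMR at -0.37 ± 0.088, TPX2, the activator of Aurora A, at -0.29 ± 0.076 and TOP2A at -0.28 ± 0.076 beside DLGAP5. ASPM and CKAP2 were not called (-0.21 and -0.29, adjusted p = 0.0595 and 0.0522). MKI67 (-0.11 ± 0.12), PLK1 (-0.087 ± 0.08) and AURKA (-0.22 ± 0.091) were not called. Also uncalled were CDC25C, AURKB, NEK2, BUB3, CDC20, UBE2C, the ubiquitin-conjugating enzyme of the anaphase-promoting complex, NDC80, CENPF, KIF20A and KIF2C, between -0.25 and -0.057. FOXM1 had the highest difference, 0.26 ± 0.087 (adjusted p = 0.064), above parental in 3 of 3 matched arrays. The counts that follow are given without shares of all tested genes. Where an array is left out, the fit has fewer residual degrees of freedom for every gene. The number called was 4 to 6 without the parental crizotinib array, the parental ceritinib array or any 1 of the LR2 arrays, 8 without a filter on dim genes and 2 without a term for agent.

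**Figure D3:**
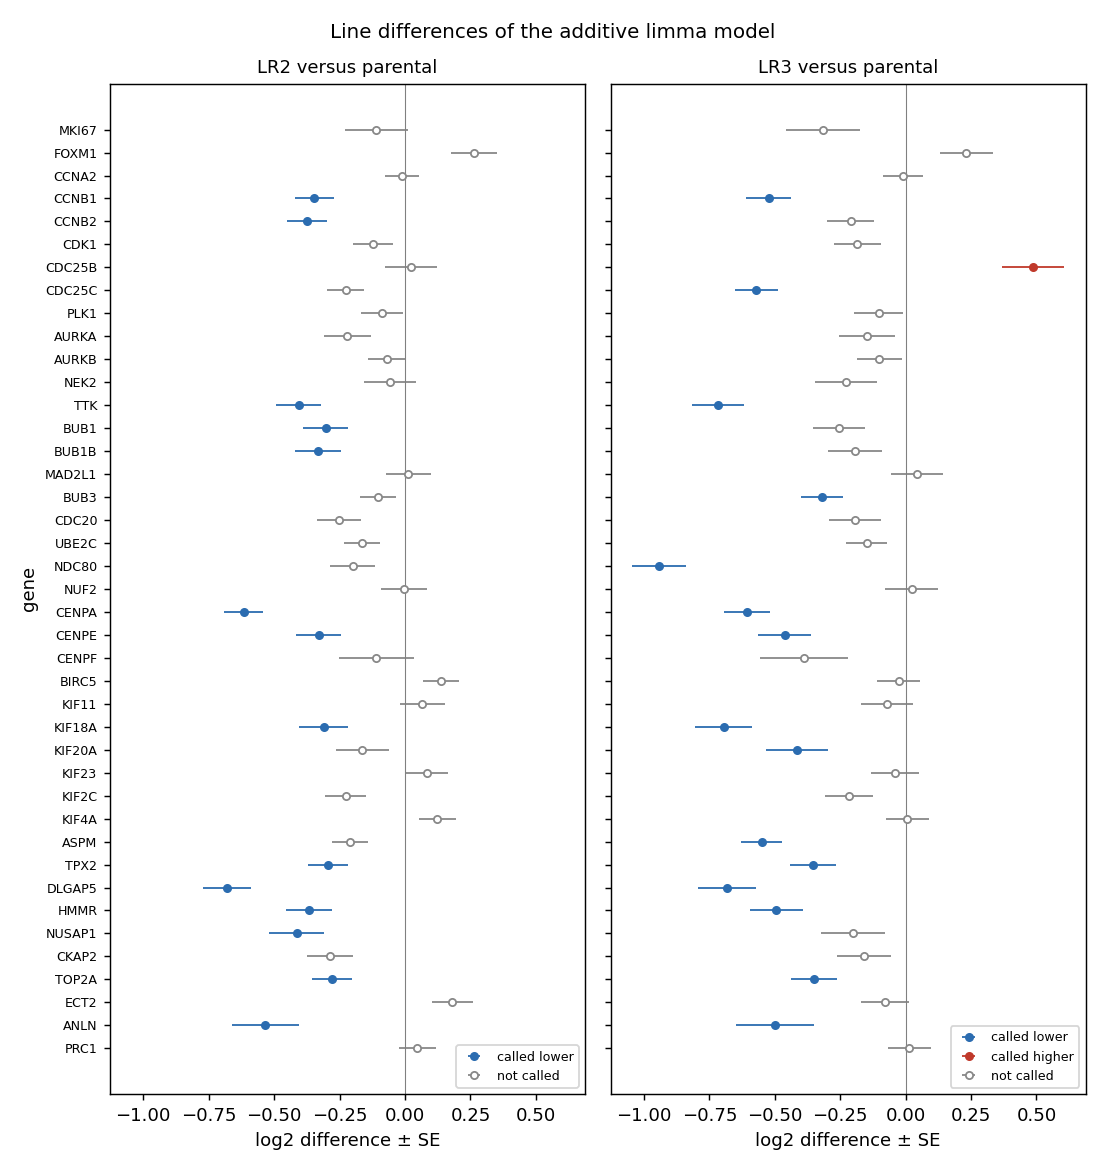
Points are the log2 differences of the additive limma model for LR2 (left) and LR3 (right) against parental cells, with standard errors as bars, and filled points are genes called at an adjusted p under 0.05. Of the 41 genes, 14 are called lower in LR2 cells, and 15 are called lower and CDC25B higher in LR3 cells.

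In LR3 against parental cells, 15 of the 41 genes were called lower and 1 higher, against backgrounds of 12.1% of tested genes lower and 9.53% higher. The median difference was -0.21, against 0.0067 for all tested genes, and 25 genes (61%) were lower in both matched arrays, against 33.7% of tested genes. This comparison shares the parental arrays with that of LR2. Its single-array median was -0.07 untreated and -0.34 with ceritinib, against 0.02 and 0.01 for all tested genes. The alternatives that follow are given without shares of all tested genes. Those with fewer arrays have fewer residual degrees of freedom for every gene. Without the LR3 ceritinib array 5 genes were called, 7 were called without a term for agent, and none was called when only the 4 matched arrays were used in pairs.

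NDC80, the outer kinetochore protein that grips microtubules, had the largest fall in LR3 cells. Its level was 8.72, 9.25 and 9.21 in parental cells (untreated, crizotinib, ceritinib), 8.69, 9.06 and 8.83 in LR2 cells, and 7.95 and 8.09 in LR3 cells (untreated, ceritinib). It fell by 0.94 ± 0.1 or 1.92-fold relative to parental cells (lower in 2 of 2 matched arrays, limma adjusted p = 9.56e-04). Both LR3 values lay below all 6 values of the other lines. NUF2, which forms a complex with NDC80 at the kinetochore, differed by 0.023 ± 0.1 in the same comparison and was not called. NUF2 measured 8.08 and 8 in LR3 cells and 7.91, 8.32 and 8.17 in parental cells, so its ranges overlapped.

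KIF18A and TTK followed. KIF18A measured 7.73, 8.38 and 8.31 in parental cells and 7.17 and 7.46 in LR3 cells, and fell by 0.7 ± 0.11 (adjusted p = 0.00468). TTK measured 8.81 and 9.19 in LR3 cells, below all parental values, and fell by 0.72 ± 0.1. DLGAP5 measured 8.76 and 8.71 in LR3 cells and fell by 0.68 ± 0.11, and CENPA measured 9.28 and 9.58 and fell by 0.61 ± 0.088. Both LR3 values of each of these genes lay below its lowest parental value. The genes were named for large falls, and the share of all tested genes so separated was not counted. CDC25C fell by 0.57 ± 0.082, ASPM by 0.55 ± 0.079 and CCNB1 by 0.52 ± 0.087. CCNB1 measured 9.68 and 9.56 in LR3 cells, below the lowest parental value of 10.09.

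CDC25B was the gene called higher in LR3 cells. It encodes the phosphatase thought to start CDK1 activation at centrosomes, and it measured 8.01, 8.49 and 8.48 in parental cells, 8.33, 8.34 and 8.38 in LR2 cells, and 8.71 and 8.84 in LR3 cells. Its difference from parental cells was 0.49 ± 0.12 or 1.4-fold (limma adjusted p = 0.0238), and it was positive in 2 of 2 matched arrays. Both LR3 values were above all others. All 5 probe sets of CDC25B were higher in LR3 than in parental arrays, by means of 0.42 to 0.77 over the 2 matched arrays. CDC25B and CDC25C thus differed in opposite directions in this line.

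**Figure D4:**
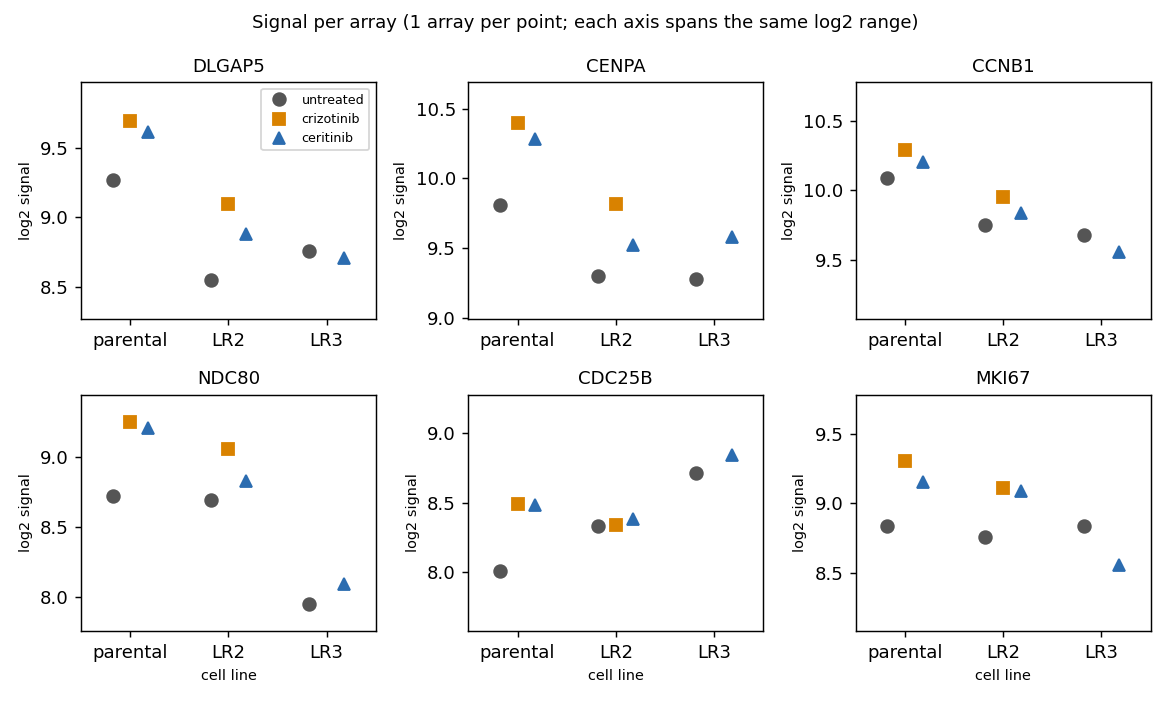
Log2 signal in each array for 6 genes, by cell line, with the marker giving the agent, and with 1 array per point on axes of equal span. DLGAP5, CENPA and CCNB1 are lower in both resistant lines than in parental cells, with the LR2 crizotinib value of CENPA at the untreated parental level. NDC80 is lowest and CDC25B highest in LR3 cells, and MKI67 overlaps between lines.

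The remaining calls in LR3 cells were falls in HMMR (-0.49), CENPE (-0.46), ANLN (-0.5), KIF20A (-0.41), TPX2 (-0.35), TOP2A (-0.35) and BUB3 (-0.32). The other 2 probe sets of BUB3 gave mean differences of -0.095 and -0.19, smaller than the -0.33 of the probe set used. KIF20A was called in LR3 but not in LR2 cells (-0.16 ± 0.1), and the difference between the lines, -0.25 ± 0.12, was not called (adjusted p = 0.182). Not called in LR3 cells were MKI67 (-0.32 ± 0.14), FOXM1 (0.23 ± 0.1), CDK1 (-0.18 ± 0.089), PLK1 (-0.1 ± 0.094) and AURKA (-0.15 ± 0.11). The 6 probe sets of MKI67 gave mean differences of -0.4 to 0.1. CCNB2, AURKB, NEK2, BUB1, BUB1B, CDC20, UBE2C, CENPF, KIF2C, NUSAP1, CKAP2 and ECT2 were also uncalled, between -0.39 and -0.08. Genes with values near 0 in both lines were CCNA2, MAD2L1, NUF2, BIRC5 (survivin, of the chromosomal passenger complex), KIF11, KIF23, KIF4A and PRC1, which bundles the central spindle, all between -0.072 and 0.14.

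The resistant lines were also compared with each other. Relative to LR2, LR3 cells had 4 of 41 genes called lower and 1 higher, against 12.3% and 7.29% of tested genes, so the set had no larger share of calls than tested genes had. CDC25B was higher by 0.46 ± 0.12 (adjusted p = 0.029). NDC80 fell by 0.74 ± 0.1 (adjusted p = 0.00244) with a difference of -0.74 in the untreated and in the ceritinib arrays alike. KIF18A fell by 0.39 ± 0.11, CDC25C by 0.34 ± 0.082 and ASPM by 0.34 ± 0.079. The median of the 41 genes was -0.061, and 0.022 without the LR3 ceritinib array. Counts of called genes were 1 to 3 without the parental crizotinib array, any 1 of the LR2 arrays or either LR3 array.

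Other probe sets of the genes were read as a check of the direction. Of the 41 genes, 28 had another probe set above the floor, 65 in all. In parental cells 61 of these 65 were higher with inhibitor, in LR2 cells 63, and in LR3 cells 49. In LR2 against parental cells 37 of the 65 were lower and 28 higher. In LR3 against parental cells 47 were lower and 17 higher. The sign was that of the probe set used for the same gene in 56 of the 65 for LR2 and 58 for LR3. With inhibitor, it was so in 63 of the 65 in parental cells, 63 in LR2 cells and 45 in LR3 cells. The 3 probe sets of TOP2A gave differences of -0.28 to -0.36 for LR2, and the 4 of CENPA gave -0.47 to -0.62. These probe sets were read on the same arrays.

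A further 99 genes of mitosis outside the set were all tested. In LR2 cells 11 were called higher and 11 lower (median -0.017), near the 12.8% and 9.68% of all tested genes. In LR3 cells 5 were called higher and 18 lower (median -0.068), against 9.53% and 12.1% of all tested genes. The largest falls in LR2 cells were those of KNSTRN (-0.49 ± 0.067), a spindle adaptor, and PSRC1 (-0.47 ± 0.068). CDC25A, a phosphatase that acts from G1/S on, was higher in LR2 cells by 0.83 ± 0.22. It measured 7.03, 6.23 and 5.9 in parental cells (untreated, crizotinib, ceritinib) and 7.61, 6.57 and 7.46 in LR2 cells. Its gap was thus uneven over agents and widest with ceritinib. In LR3 cells KIF15, a spindle kinesin, had the largest fall. It measured 6.81, 7.34 and 7.46 in parental cells, 6.86, 7.23 and 7.24 in LR2 cells and 5.7 and 5.84 in LR3 cells, a fall of 1.37 ± 0.11 relative to parental cells (adjusted p = 3.18e-04). TACC3, which helps hold spindle fibres together, was higher in LR3 cells by 1.24 ± 0.086 (adjusted p = 1.21e-04), at 9.11 and 9.18 against 7.87 to 7.93 in parental cells. DEPDC1 and DEPDC1B fell by 0.65 and 0.63.

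Genes of G1/S and DNA replication, such as the MCM helicase and PCNA, were read from a list of which 39 were tested. In LR2 cells 13 were called higher and none lower, against 12.8% and 9.68% of all tested genes. In LR3 cells 8 were called higher and 1 lower, against 9.53% and 12.1%. With inhibitor, their single-array medians were -0.01 and 0 in parental cells and -0.07 and 0.11 in LR2 cells (crizotinib and ceritinib), and -0.02 with ceritinib in LR3 cells. The 99 other mitotic genes had medians of 0.2, 0.15, 0.13, 0.16 and 0.04 in the same order. Those of the 41 genes were 0.42, 0.36, 0.39, 0.21 and 0.09. Pairs of 1 line share the untreated array. Single genes of the G1/S list differed in both directions around its median. CCNE2, cyclin E2, measured 8.41, 7.53 and 7.7 in parental cells (untreated, crizotinib, ceritinib) and 8.91, 8.14 and 8.71 in LR2 cells. CDT1 measured 6.9, 7.51 and 7.47 in parental cells and 7.39, 7.53 and 7.48 in LR2 cells.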

How the data were processed

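RNA of 8 cultures was hybridised to 1 array each. The authors deposited log2 signals per probe set, made with RMA per the submitters' processing notes, and its software and version are not given in the sources used here. No further normalization was applied. Of 49395 probe sets, 102 were controls, 44988 others had 1 symbol, 1832 several and 2473 none. A gene was tested when its brightest probe set exceeded 5.36, the median of all values, in at least 2 arrays.

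Line and agent comparisons used limma 3.58.1 in R 4.3.3 with line and agent as terms, fitted to all 8 arrays together (3 residual degrees of freedom). Because LR3 had no crizotinib array, those estimates also draw on unmatched arrays. Responses and their differences used 6 groups, line by inhibitor or none, with crizotinib and ceritinib counted as 1 condition (2 residual degrees of freedom). In LR3 cells 1 array stood on each side, and its spread was taken from the other lines. A call needed an adjusted p under 0.05, by Benjamini-Hochberg across the 10527 genes. The scripts were tested on simulated data. Alternatives were quantile normalization, median centring, the mean of all probe sets, probe sets without shared suffixes, no filter or a stricter one, a variance trend, each array left out, no agent term, matched pairs, and agents tested apart.

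The genes and all lists were chosen with earlier results of these data known. Named were MKI67, FOXM1, CCNB1, CDK1, PLK1, AURKA and TOP2A in the line comparisons and responses, up to 6 called genes per direction and comparison, and up to 4 called genes of other mitosis lists; where nothing was called, and beyond these limits, genes were chosen after their values were seen.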

Additional observations from a re-analysis of the deposited data

Results flagged for a closer look

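In 5 genes the line effects of LR3 and LR2 differed from each other in a direct limma test of LR3 against LR2. Of all tested genes, 12.3% were called lower and 7.29% higher in that test, so the set had no larger share of calls. CDC25B was higher in LR3 by 0.4633 (adjusted p = 0.029), and NDC80 was lower, at -0.7425 (adjusted p = 0.00244). CDC25C was lower at -0.3442 (adjusted p = 0.0225), KIF18A at -0.385 (adjusted p = 0.0436) and ASPM at -0.34 (adjusted p = 0.0209). NDC80 kept its call in all 17 alternatives tried, whereas KIF18A lost it in 11 of 17, CDC25B and ASPM in 7 of 16 each and CDC25C in 6 of 16.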

How the results depend on the processing

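For LR2 against parental cells, 19 genes were called after quantile normalization and 19 after median centring, among them all 14 called without these steps. For LR3 against parental cells 16 and 14 were called, all of them among the 16. With fewer arrays, every gene tested has fewer residual degrees of freedom. Counts over all tested genes are not given beside the counts below. With 1 array left out, genes called ranged from 4 to 14 for LR2 against parental cells, 5 to 15 for LR3 against parental cells, 1 to 6 for LR3 against LR2, 0 to 1 for ceritinib against crizotinib (1 without the parental ceritinib array) and 0 to 22 for crizotinib in the additive model. At an unadjusted p under 0.05 they ranged from 9 to 30 for the parental response, 8 to 23 for LR2, 1 to 4 for LR3, 0 to 5 and 2 to 12 for the response differences of LR2 and LR3, 1 to 15 for ceritinib against crizotinib and 11 to 26 for ceritinib in the additive model. Medians ranged from -0.165 to 0.0217 for LR3 against LR2, -0.19 to -0.09 for ceritinib against crizotinib, 0.36 to 0.42 for the parental response and 0.2767 to 0.405 for crizotinib in the additive model.

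Leaving out probe sets with shared suffixes left 6 of the genes, by construction. It called 1, 2 and 1 in the 3 line comparisons and 1 with crizotinib in the additive model. At an unadjusted p under 0.05 it gave 4 genes for the parental response, 2 for LR2, 0 for LR3, 0 and 0 for the response differences, 0 for ceritinib against crizotinib and 4 for ceritinib in the additive model, with medians of 0.45 (parental response) and 0.4388 (crizotinib). Without a filter 8 genes were called for LR2 and 6 with crizotinib, and 3 response differences of LR3 met the unadjusted p, as did 3 under quantile normalization, 3 with centring and 3 with the mean of all probe sets. That mean gave 1 gene for the LR3 response, 0 for the response difference of LR2, and medians of 0.335 (parental response) and 0.3281 (crizotinib). Centring gave 9 genes for the LR2 response, 4 called with crizotinib, 13 at an unadjusted p for ceritinib in the additive model and a median of -0.1667 for ceritinib against crizotinib. A variance trend called 19 genes with crizotinib and 3 with ceritinib, and the filter in all arrays called 2 with ceritinib. Without an agent term 2, 7 and 1 genes were called in the line comparisons. Matched pairs alone, with fewer arrays, called 0 for LR3 against parental cells and 1 for LR3 against LR2. Testing agents apart called 12 genes with crizotinib, where the responses called none. It gave 27 genes at an unadjusted p for crizotinib and 23 for ceritinib, and medians of 0.3508 and 0.2167 beside the 0.405 of the parental response.

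Uncalled values of CDK1 changed sign: in parental cells to 0.0263 (quantile), 0.205 (mean of all probe sets) and 0.0358 (crizotinib alone), in LR2 cells to -0.0117 (mean of all probe sets) and -0.0033 (ceritinib alone), and in LR3 cells to 0.02 (mean of all probe sets). For LR3, MKI67 turned to 0.0067 with the mean of all probe sets and 0.12 with ceritinib over 3 lines, and CCNB1 to 0.0267 with the latter. With 1 array left out, the parental difference of CDK1 was -0.04 to 0, which is no change of sign. The cause of these changes was not tested. The labels carry no replicate numbers, so arrays were paired by agent alone.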

Other observations

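Genes next to NDC80, KIF15 and TACC3 were read after the values of these 3 genes had been seen, taking 4 genes on each side in the RefSeq order of GRCh38.p14. Around NDC80, LR3 cells were called lower than parental cells in TYMS (-0.52), YES1 (-0.72), METTL4 (-0.47) and SMCHD1 (-0.46), and LPIN2 was called higher (0.52), whereas TYMSOS, EMILIN2 and MYL12A were not called. In LR2 cells LPIN2 alone of these 8 neighbours was called (0.43). Around KIF15, LR3 cells were called lower in TCAIM (-0.29), ZNF445 (-0.79), ZNF35 (-0.52), KIAA1143 (-0.6), TMEM42 (-0.57), ZDHHC3 (-0.45) and EXOSC7 (-0.38), and CDCP1 was not called (-0.31, adjusted p = 0.067). In LR2 cells ZDHHC3 alone of these 8 was called, and it was higher (0.26, adjusted p = 0.039). TACC3 lies next to FGFR3, a receptor tyrosine kinase, which was higher in LR3 cells by 1.14 ± 0.084 (adjusted p = 1.82e-04) and in LR2 cells by 0.36 (adjusted p = 0.0103). The other 7 neighbours of TACC3 were not called in either line, and TACC3 itself was not called in LR2 cells (0.17, adjusted p = 0.129).

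Outside all lists, the 5 tested genes whose levels over the 8 arrays were most like the mean of the 41 genes were FAM184A (Pearson r = 0.99), PLPP3 (0.99), KAT6B (0.99), TMEM131L (0.98) and NBAS (0.98). TMEM131L measured 6.15, 7.39 and 7.08 in parental cells (untreated, crizotinib, ceritinib), 5.85, 6.89 and 6.4 in LR2 cells, and 6.08 and 6.1 in LR3 cells (untreated, ceritinib). They are the best of all tested genes outside the lists, compared over 8 arrays that share lines and agents, and no test was made.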
